A study of Saccharomyces cerevisiae with 8 samples.

Results

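The solvent control of a drug-footprinting experiment on yeast ribosomes was compared with ribosomes to which nothing had been added. Purified 80S ribosomes of Saccharomyces cerevisiae were incubated in vitro, treated with 90 mM dimethyl sulfate (DMS) for 8 min and quenched, and the mutation rate of each ribosomal RNA (rRNA) nucleotide was read by sequencing. The comparison takes 2 of the 8 libraries in the series, chosen by their titles, namely DMS-treated ribosomes in the presence of the solvent dimethyl sulfoxide (DMSO), and DMS-treated ribosomes with no addition. Neither held a drug. Another library, without DMS, gives the background rate, and 5 further DMS libraries held agelastatin A (AglA, 0.5 or 1.0 mM) or cycloheximide (CHX, 10, 50 or 1000 µM), both inhibitors of translation, and their values are given in that order of dose. The share of DMSO in the reaction, the solvents of the drugs, the yeast strain and the number of ribosome preparations are not stated in the labels. There was 1 library a side, so no test was possible, no p-value is given, and every difference below lacks a replicate check. The depth of the libraries is not known, so the counting error of a rate cannot be given either.

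DMS adds a methyl group to the pairing face of adenosine (A) and cytidine (C) where that face is free, and it also methylates guanosine (G) at a position outside the base pair. In this assay the reverse transcriptase reads through the methylated base and leaves a mismatch, and the mutation rate counts such mismatches as a share of the reads. A high rate at A or C therefore marks a base that is unpaired and exposed, provided that its rate without DMS is low. DMSO is a polar solvent that carries poorly soluble compounds into water, and at high concentrations it weakens base pairing in nucleic acids.

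The deposited table covers 5475 nucleotides in 4 rRNAs, 25S, 5.8S and 5S of the large subunit and 18S of the small subunit. Comparisons of A and C used the 514 nucleotides (381 A and 133 C) that reached 0.5% on average in the 7 libraries with DMS. The log2 ratios given are those of the DMSO library over the no-addition library, with 0.1 percentage points added to each rate and each library's median over these nucleotides subtracted. That subtraction raised every ratio by 0.060. A value of -1 is 2-fold lower with DMSO on this adjusted scale, and the plain rates can differ by more or less than that. Counts of 2-fold differences below use the adjusted scale. The 514 include bases that were about as high without DMS. Examples are C1773 of 18S (1.04% without DMS, 1.03% with nothing added), A619 of 18S (1.03% and 1.05%) and A1133 of 25S (1.10% and 1.09%).

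The sequences of 8 places are printed first, chosen to show the kinds of difference and not by size alone. Letters are those of the deposited table, with T for U, 5′ to 3′ along the rRNA. The coordinates are those of the first annotated rDNA copy in the RefSeq gene table (assembly R64, minus strand of chromosome XII), and stand for all copies. Capitals mark A and C of the set used for comparison that had a log2 ratio of size 0.25 or more. The listed A and C of lower rate described further on are also in capitals. G and U are in lower case whatever their ratio. One of them, G1074 of 18S, lies next to C1075 and had 0.461% with nothing added against 0.272% in DMSO (-0.53). The sets show a lone base that is lower (C439, A971), 3 adjacent bases that are lower together (A1131 to A1133), and places where a lower base lies beside a higher one (A847 and A848, A926 and A929, A65 and A68, C1075 and A1076, and A2255, C2257 and A2259).
25S nucleotides 427 to 451, chrXII 454731 to 454755: catttgatcagaCatggtgttttgt
18S nucleotides 959 to 983, chrXII 456750 to 456774: tttcattaatcaAgaacgaaagttA
18S nucleotides 1120 to 1144, chrXII 456589 to 456613: tcgcaaggctgAAActtaaaggaat
25S nucleotides 835 to 859, chrXII 454323 to 454347: gaagccagaggaAActctggtggag
18S nucleotides 916 to 940, chrXII 456793 to 456817: tttattgaagActAactactgcgaa
18S nucleotides 55 to 79, chrXII 457654 to 457678: atgtctaagtAtaAgcaatttAtac
18S nucleotides 1063 to 1087, chrXII 456646 to 456670: tgacccactcggCAccttacgagaa
25S nucleotides 2246 to 2270, chrXII 452912 to 452936: ggcgggagtAaCtAtgactctctta

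As a whole, the DMS pattern of the ribosome was close in both libraries. Over the 514 nucleotides the median was 1.74% with nothing added and 1.66% in DMSO, against 0.0544% without DMS, and the log2 rates of the libraries had a Pearson correlation across nucleotides of 0.990. The median log2 ratio was 0.046, and -0.014 before the library medians were subtracted. The rate itself was lower with DMSO at 275 of the 514 nucleotides. The log2 ratio had a standard deviation over nucleotides of 0.194, 393 of the nucleotides lay within 0.2 of 0, and 502 within 0.5.

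**Figure D1:**
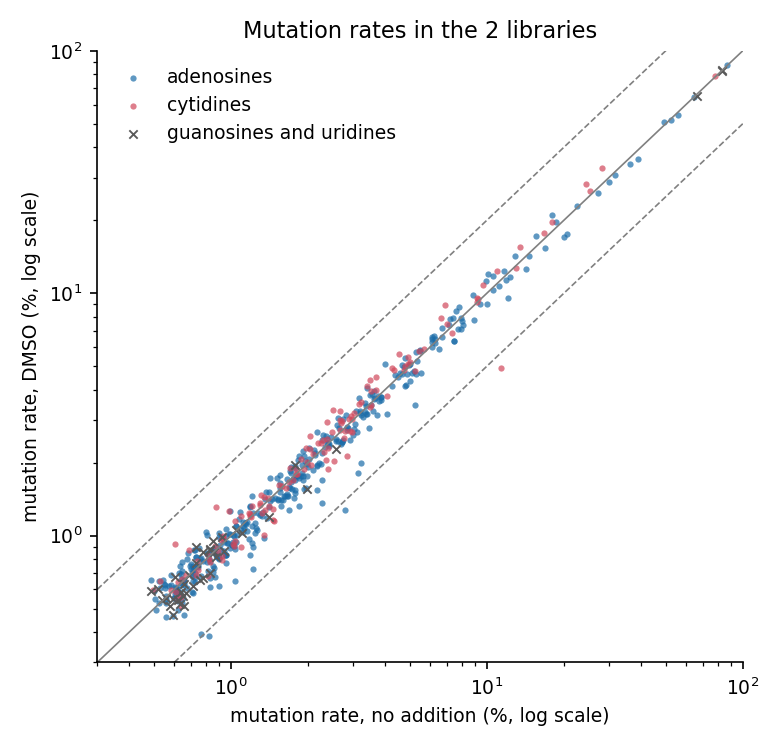
Mutation rate with DMSO against the rate with no addition, both in percent on log axes, 1 point per nucleotide (514 A and C as dots, 39 G and U as crosses). The solid line marks equal rates and the dashed lines a 2-fold difference. Most points lie close to the solid line, and C439 of 25S lies below the lower dashed line at 11.4% and 4.93%.

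The spread between these libraries was larger than that between doses of 1 drug. After C2821 and C2764 of 25S were left out, the nucleotides that AglA and CHX protect, the standard deviation of the log2 difference over 512 nucleotides was 0.096 between the AglA doses. It was 0.085 to 0.136 between pairs of CHX doses, and 0.194 between DMSO and no addition. Other pairs were wider, with 0.209 to 0.237 between AglA and CHX libraries, 0.211 and 0.214 between no addition and AglA, and 0.216 to 0.233 between DMSO and CHX. Narrower were DMSO with AglA, at 0.110 and 0.127, and no addition with CHX, at 0.116 to 0.139. Each of these values compares 1 library with 1 other. At the protected bases themselves the DMSO and no-addition libraries were close, at 12.9% with nothing added against 12.7% in DMSO at C2764, and 5.68% with nothing added against 5.87% in DMSO at C2821.

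The largest differences were mostly losses. By size, 2 nucleotides (0.389% of the 514) had a log2 ratio of -1 or lower and 0 (0%) had 1 or higher. The plain rate of A847 of 25S was also lower by 2.13-fold, but its log2 ratio was -0.87. At a log2 size of at least 0.5, which is 1.41-fold, 10 were lower (1.95%) and 2 were higher (0.389%). The 10 comprised 9 adenosines and 1 cytidine, and both higher ones were cytidines. Adenosines were 381 of the 514 tested nucleotides, so they make up most of the tested set as well. On the lower side A2049 of 25S, the smallest of the 10, was at -0.53. The next in order, A68 and A1671 of 18S, were at -0.41 and -0.40. Steps as large lay within the 10, as between A847 of 25S (-0.87) and A1133 of 18S (-0.75), so the bound and not a gap sets the list. Counts of smaller differences depended on the centring. At a size of 0.2 or more, 39 nucleotides were lower and 82 higher, but 65 were lower and 43 higher before the library medians were subtracted. With each ratio set against the median of 0.046 in place of 0, the counts at 0.5 were again 10 and 2.

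C439 of 25S rRNA differed most. It lies in domain I, at position 454743 of chromosome XII, and had 11.4% with nothing added against 4.93% in DMSO, a log2 ratio of -1.13. Its rate without DMS was 0.0901%. In the drug libraries it had 4.66% and 5.21% under AglA, then 8.94%, 10.3% and 9.99% under CHX. The AglA libraries thus lay beside the DMSO library and the CHX libraries nearer the one with no addition. The flanking adenosines did not share the loss, at 1.48% with nothing added against 1.43% in DMSO at A438, and 1.66% with nothing added against 1.72% in DMSO at A440.

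A971 of 18S rRNA was the other base with a log2 ratio of -1 or lower, at a lower rate. It lies in the central domain, which forms the platform of the small subunit. It had 2.78% with nothing added against 1.28% in DMSO (-1.002), and 1.47% and 1.61% under AglA, then 1.87%, 2.64% and 2.54% under CHX. Both AglA rates were nearer to DMSO, and the rates with 50 and 1000 µM CHX nearer to no addition. The 10 µM CHX rate lay between, in a library of lower overall level. Its median over the 514 nucleotides was 1.31%, against 1.74% with nothing added and 1.66% in DMSO. With library medians subtracted, the lowest CHX value of A971 was above the highest AglA value by 0.469. The neighbouring bases are compared in plain rates. A970, next to A971 and far more reactive, had 14.6% with nothing added against 14.3% in DMSO (0.03).

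The 3 adjacent adenosines A1131, A1132 and A1133 of 18S were lower together. A1131 had 1.03% with nothing added against 0.649% in DMSO (-0.54), A1132 had 1.22% with nothing added against 0.729% in DMSO (-0.61), and A1133 had 0.763% with nothing added against 0.393% in DMSO (-0.75). This was the 1 run in the 4 rRNAs of at least 3 successive tested nucleotides, each no more than 5 from the next, that had the same sign and a size of at least 0.2. With AglA the rates were 0.596% and 0.641% at A1131, 0.746% and 0.776% at A1132, and 0.417% and 0.423% at A1133. With CHX they were 0.799% to 0.962%, 0.829% to 1.05%, and 0.523% to 0.664%. At each of the 3 bases both AglA rates were below all CHX rates. A1139, a few bases downstream and reactive in most reads, was at 64.6% with nothing added against 64.5% in DMSO.

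In domain II of 25S, A847 and A848 went in opposite directions. A847 had 0.821% with nothing added against 0.385% in DMSO (-0.87), while A848 had 10.1% with nothing added against 11.96% in DMSO (0.30). In the drug libraries A847 had 0.270% and 0.331% under AglA, then 0.609%, 0.707% and 0.760% under CHX. A848 had 12.2% and 11.8% under AglA, then 7.13%, 8.77% and 8.21% under CHX. With AglA, A847 was therefore below and A848 above every CHX library. A846, on the other side, had 1.45% with nothing added against 1.41% in DMSO.

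The remaining lower bases were single adenosines. In 18S, A929 of the central domain had 3.21% with nothing added against 1.99% in DMSO (-0.60), and 2.07% and 2.13% under AglA, then 2.43%, 2.91% and 2.94% under CHX. The others in 18S lie in the 3′ part of the molecule, which holds the long decoding helix. Of these, A1655 had 2.27% with nothing added against 1.36% in DMSO (-0.64), and 1.17% and 1.27% under AglA, then 1.93%, 2.02% and 1.91% under CHX. A1746 had 3.12% with nothing added against 1.81% in DMSO (-0.70), and 1.65% and 1.60% under AglA, then 2.53%, 2.59% and 2.40% under CHX. In domain IV of 25S, which faces the small subunit, A2049 had 5.26% with nothing added against 3.47% in DMSO (-0.53), and 3.27% and 3.40% under AglA, then 4.09%, 4.92% and 4.77% under CHX. At each of these bases both AglA rates were nearer to the DMSO than to the no-addition rate, and all CHX rates were above the DMSO rate.

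The 2 cytidines that were higher with DMSO are both in 25S. C2078 of domain IV had 0.602% with nothing added against 0.921% in DMSO (0.60), and 0.820% and 0.864% under AglA, then 0.541%, 0.579% and 0.530% under CHX. C3350 of domain VI had 0.874% with nothing added against 1.32% in DMSO (0.60), and 1.04% and 1.19% under AglA, then 0.695%, 0.677% and 0.637% under CHX. Again the AglA rates were above the CHX rates. Next in size were C1846 (0.45) and C3072 (0.44) of 25S, and A1043 (0.42), A1325 (0.40) and A65 (0.40) of 18S. C1248, C1628, A1136, C453 and C482 of 25S followed, at 0.37 to 0.39. Among the 12 highest ratios 8 were thus cytidines, although cytidines were 133 of the 514 nucleotides.

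**Figure D2:**
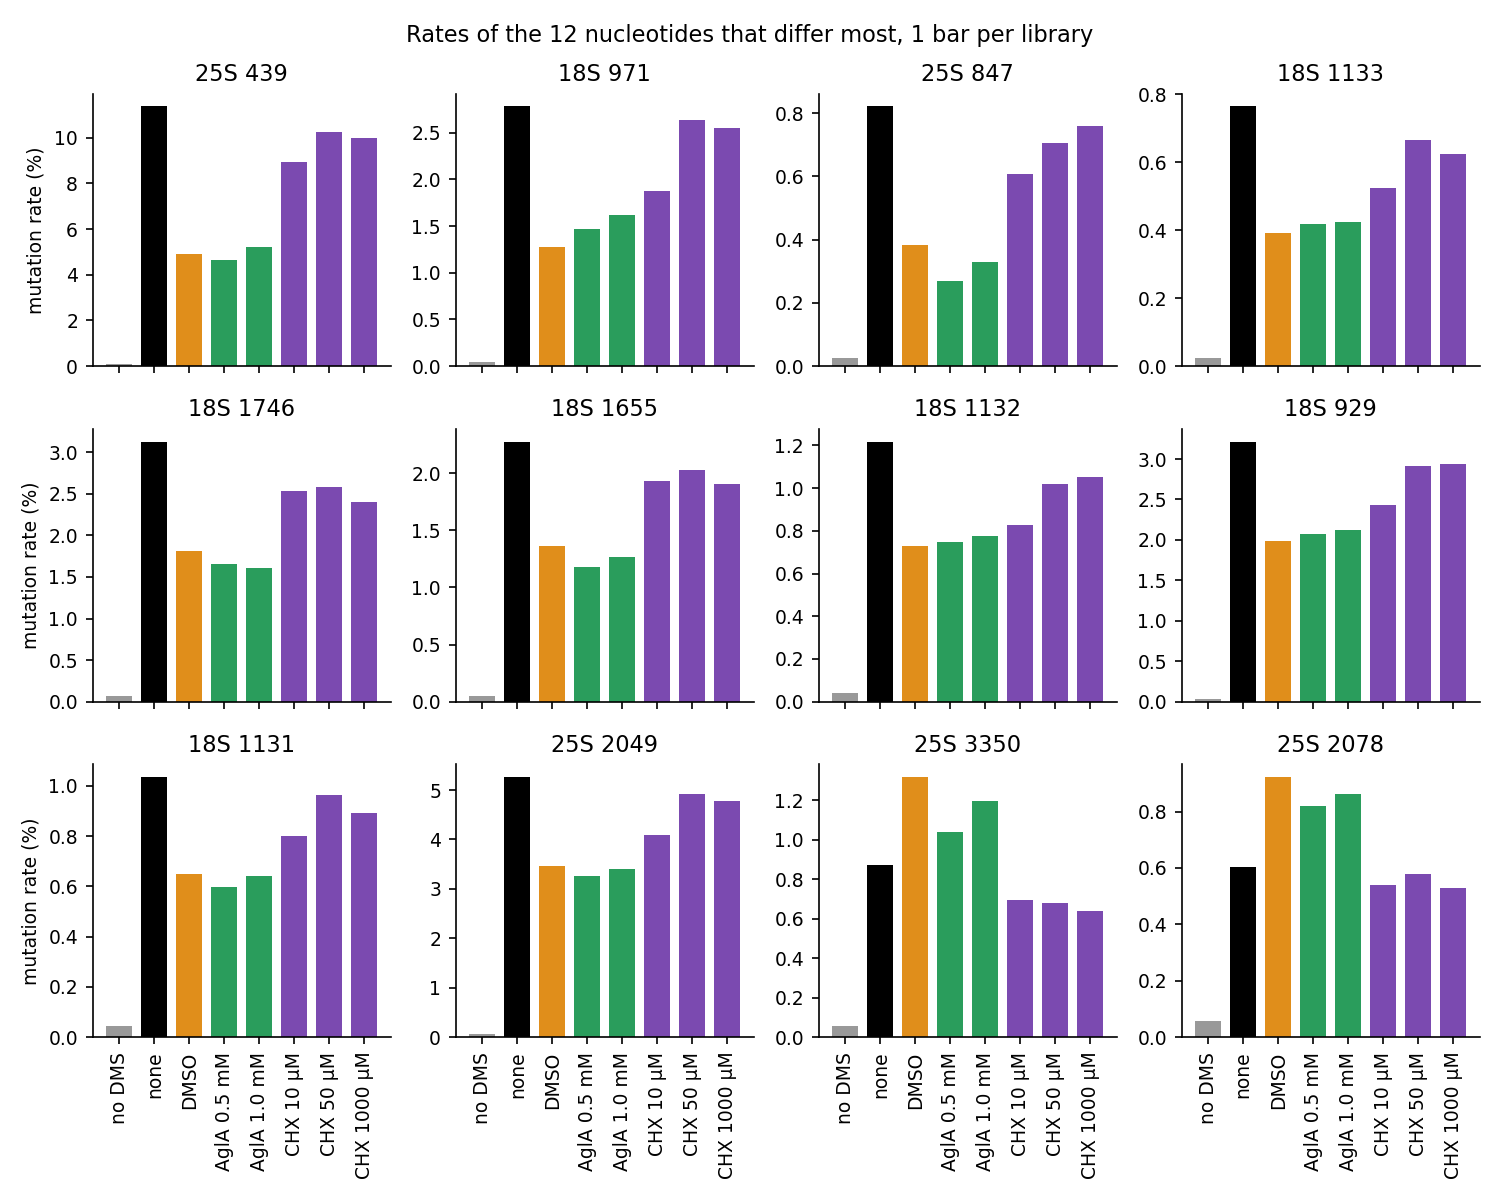
Mutation rate in percent of the 12 nucleotides past 0.5, in order of the log2 ratio, with 1 bar for each of the 8 libraries and a scale of its own in each panel, from 0. In the first 10 panels the DMSO and AglA bars are lower than the bars for no addition and CHX, and in the last 2 they are higher.

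In percentage points, the very reactive bases moved most after C439, which was lower by 6.44 points. These bases were picked out after their values were seen. C2284 of 25S had 28.1% with nothing added against 32.7% in DMSO, C139 of 18S had 24.4% with nothing added against 28.2% in DMSO, and A213 of 25S had 17.95% with nothing added against 21.01% in DMSO. Lower with DMSO were A1225 and A2357 of 25S, at 38.8% with nothing added against 35.8% in DMSO, and 19.9% with nothing added against 17.01% in DMSO. On the log2 scale these were small differences, between -0.17 and 0.29.

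Among the tested nucleotides, cytidines were slightly higher than adenosines with DMSO. The median log2 ratio was 0.113 for the 133 C and 0.025 for the 381 A, beside 0.046 for both together, and the uncentred rate was lower with DMSO at 47 C and 228 A. In 25S the medians were 0.128 for 76 C and 0.034 for 216 A, and in 18S 0.053 for 48 C and 0.014 for 151 A. Adenosines that follow a C in the sequence had the lowest median by preceding base (-0.021 for 78), while adenosines after A, G or U had medians of 0.024, 0.046 and 0.051. Past 0.5 were 0 of the 78 after C, 4 of 117 after A, 4 of 110 after G and 1 of 76 after U. Over all 381 A there were 9, so these counts are too small to set the preceding bases apart. By level, the median was 0.030 for the 175 nucleotides with a mean rate of 0.5 to 1%, 0.023 for 132 at 1 to 2%, 0.075 for 129 at 2 to 5%, and 0.087 for 78 above that. All of these medians are smaller than the standard deviation over single nucleotides.

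Along the rRNAs the lower bases lay mostly in 18S. Of the 10 lower nucleotides, 7 were in 18S, which held 199 of the 514 tested, and 3 in 25S, which held 292. Within 18S, 5 lay in the central domain (69 tested) and 2 in the 3′ part (34 tested), while the 5′ domain (62 tested) and the head (34 tested) had 0. In 25S they lay in domains I, II and IV, 1 in each, and domains III and V had no nucleotide past 0.5 in either direction. The boundaries of these regions are approximate and were not taken from a structure. The medians of the regions were 0.078, 0.047, 0.092, 0.024, 0.052 and 0.099 in domains I to VI of 25S. They were 0.026 and 0.027 in the 5′ and central domains of 18S, 0.010 in the head and -0.034 in the 3′ part. Each of these medians was smaller than the spread of the region's own nucleotides, which had standard deviations of 0.147 to 0.25.

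The small rRNAs held no large difference. The 15 tested nucleotides of 5.8S had a median log2 ratio of 0.074 and the 8 of 5S one of 0.145, and 0 of either were past 0.5. In 5.8S the extremes were C84 (-0.09) and C110, which had 2.67% with nothing added against 3.26% in DMSO (0.34). In 5S they were A103 (-0.07) and C105 (0.29), and the most reactive base, A42, had 12.9% with nothing added against 14.2% in DMSO.

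**Figure D3:**
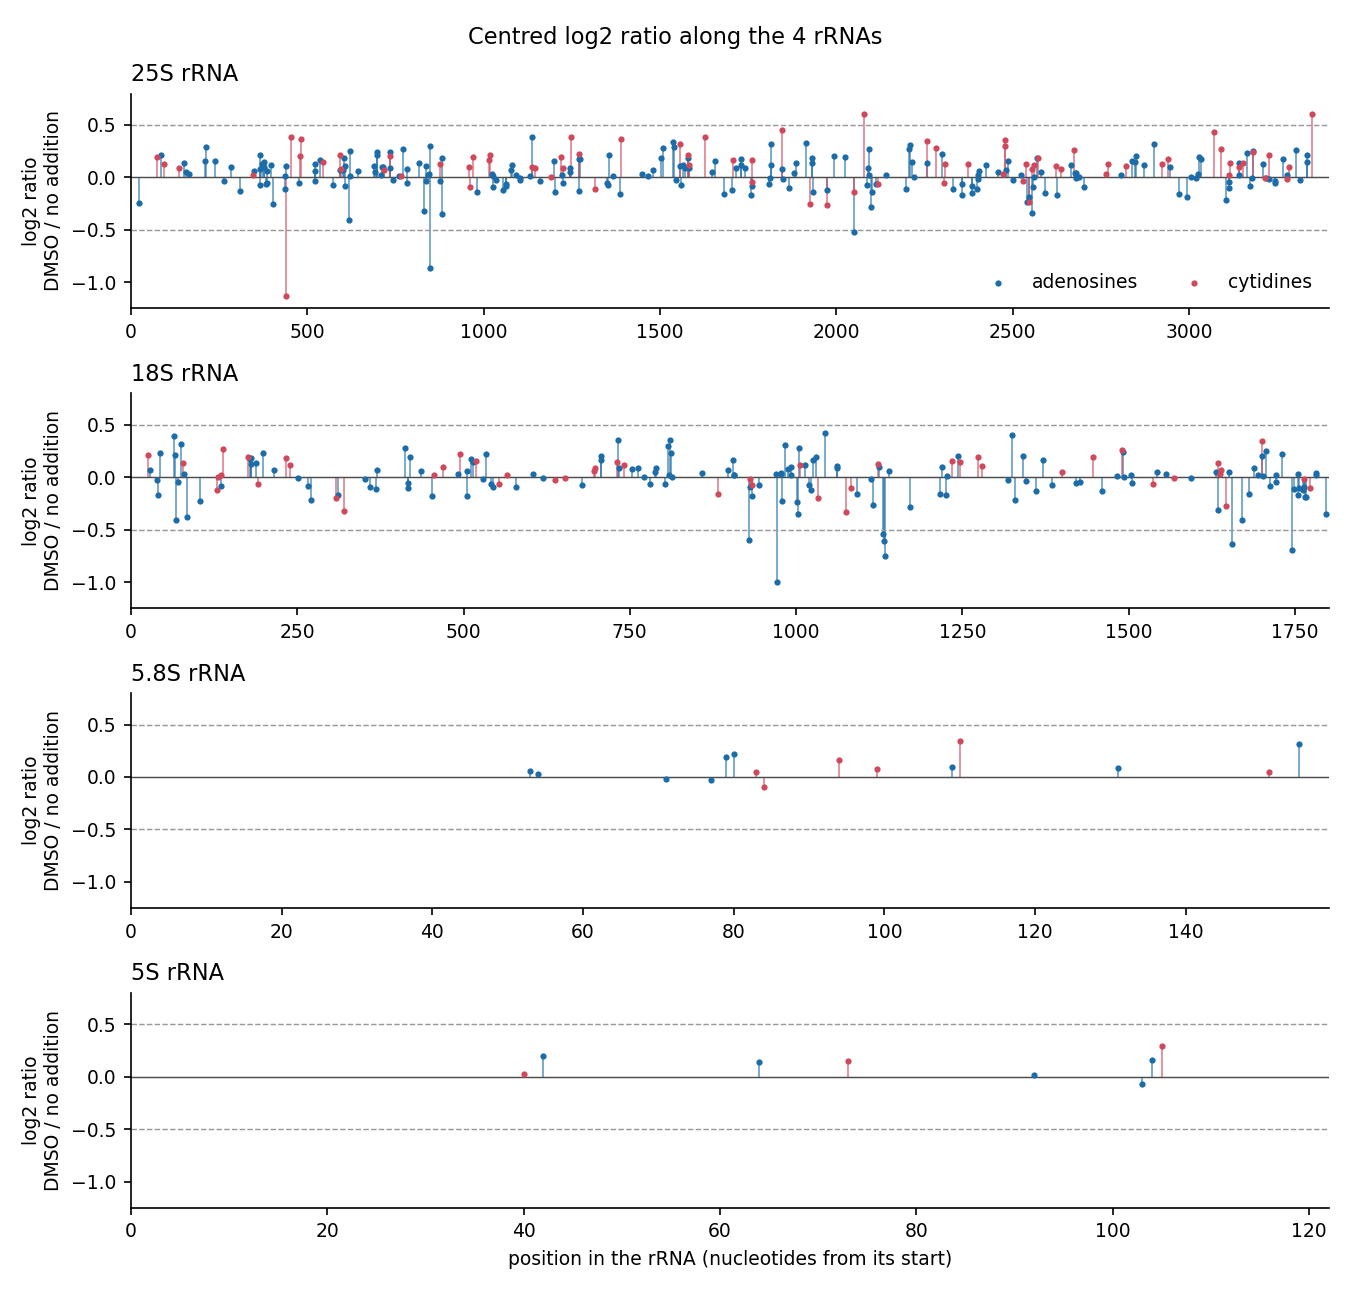
Centred log2 ratio of DMSO over no addition at each tested A and C, against position in the rRNA, with dashed lines at -0.5 and 0.5. The 10 downward points past the dashed line are 7 in 18S and 3 in 25S, and the 2 upward ones are in 25S.

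In blocks of 100 nucleotides, 48 of 56 held at least 5 tested nucleotides, and their medians ran from -0.267 to 0.249. The lowest was 18S 1101 to 1200, where 5 of 9 nucleotides were lower by at least 0.2 and 0 were higher. It holds A1131 to A1133 together with A1116, which had 12.1% with nothing added against 9.60% in DMSO (-0.27), and A1171, which had 1.20% with nothing added against 0.929% in DMSO (-0.28). In the same block A1113, C1123, A1125 and A1139 were at -0.02, 0.13, 0.09 and 0.06. The highest block was 25S 2201 to 2300, where 5 of 8 were higher by at least 0.2 and 0 were lower. Those 5 were A2207 (0.27), A2208 (0.31), C2257 (0.35), C2284 (0.28) and A2299 (0.22). In 14 of the 56 blocks, nucleotides past 0.2 were found in both directions.

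Neighbours moved together weakly, and over 1 or 2 nucleotides. Over the 187 pairs of tested nucleotides 1 or 2 apart in the same rRNA, the Pearson correlation of the log2 ratio was 0.278, and 65.2% of pairs had the same sign. It was -0.033 for 151 pairs 3 to 5 apart, 0.072 for 287 pairs 6 to 10 apart and 0.112 for 497 pairs 11 to 20 apart. Pairs 51 to 100 apart, of which there were 2333, gave 0.015, with 54.4% of the same sign. Without A1131, A1132 and A1133 the value for 1 or 2 apart was 0.154, so much of it rests on that triplet. The same measure between doses of 1 drug, which involves neither library, was -0.034 to 0.233 for 1 or 2 apart. Here it was 0.278 with the triplet, above that range, and 0.154 without it, inside the range. For AglA minus CHX it was 0.116. The dose and AglA minus CHX values keep the triplet. Close nucleotides are read on the same short RNA fragments, and the part of that in these values was not tested.

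**Figure D4:**
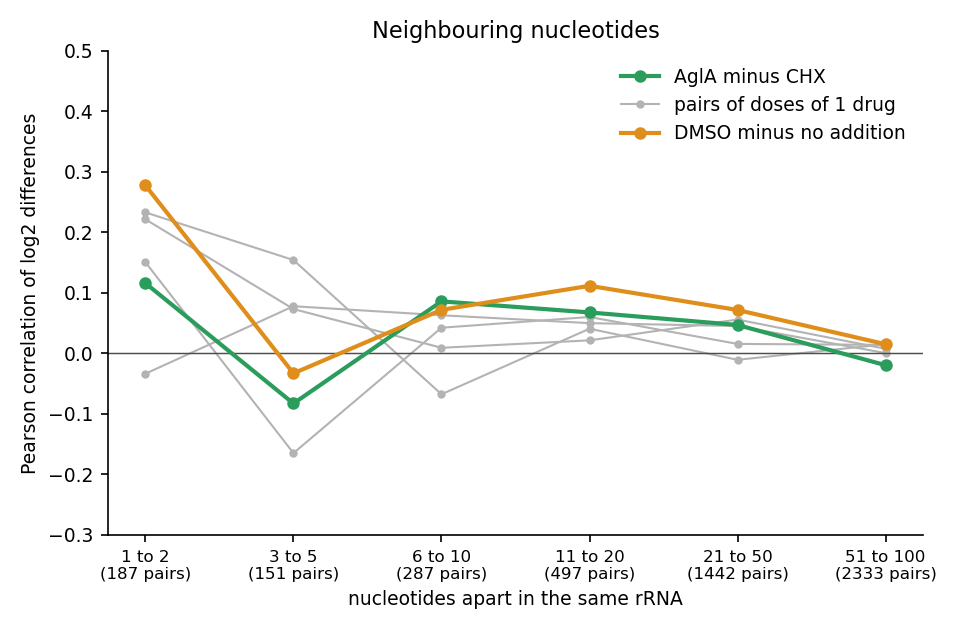
Pearson correlation of log2 differences between tested nucleotides of the same rRNA, by distance in nucleotides, for DMSO minus no addition, for AglA minus CHX and for pairs of doses of 1 drug. Pair counts are those of DMSO minus no addition. The DMSO line starts at 0.278 for 1 or 2 apart and lies at 0.015 for 51 to 100 apart.

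Most of the large differences stood alone among their neighbours. Of the 12 nucleotides past 0.5, 10 had a tested nucleotide within 5 positions, and C2078 and C3350 had none. Apart from members of the triplet, there were 13 such neighbours, of which 7 had the same sign and 6 the opposite, and 12 lay within 0.2 of 0. Before centring, 11 of the 13 had the same sign and 10 lay within 0.2 of 0. Those of A929 were all lower, with A930 at -0.09, C931 at -0.02, A933 at -0.18 and C934 at -0.08. Beside A1655 and A1746, A1651 was at 0.05 and A1749 at -0.12, and beside A2049, C2050 was at -0.14. Among all 187 pairs 1 or 2 apart, both were lower by at least 0.2 in 4 pairs, both were higher in 11, and 3 had one of each. Before centring these counts were 7, 3 and 2, so the balance of lower and higher pairs turned with the centring. The opposed pairs, picked out after their values were seen, were A847 with A848, A67 (0.21) with A68 (-0.41) and A1003 (-0.35) with A1005 (0.28), both in 18S. A68 had 0.899% with nothing added against 0.620% in DMSO, and A65, which lies 3 nucleotides before it, had 4.01% with nothing added against 5.09% in DMSO.

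Bases of lower rate showed the same mixture. Among the 1081 A and C with a mean rate of 0.1 to 0.5%, 3 were lower and 3 higher at 0.5 (0.278% each), beside a median of -0.0012. The lower ones were A2259 of 25S, at 0.579% with nothing added against 0.313% in DMSO (-0.66), A1790 of 18S, at 0.360% with nothing added against 0.186% in DMSO (-0.63), and A2255 of 25S, at 0.383% with nothing added against 0.211% in DMSO (-0.57). A2255 and A2259 flank the higher C2257, so that alternate bases of this stretch differed in opposite directions. The higher ones were A1076 of 18S, at 0.333% with nothing added against 0.540% in DMSO (0.62), C2009 of 25S, at 0.296% with nothing added against 0.467% in DMSO (0.58), and A926 of 18S, at 0.146% with nothing added against 0.242% in DMSO (0.53). A1076 lies next to C1075, which was lower (-0.33), and A926 lies 3 nucleotides before A929. Next in size were A1633 (-0.48) and C1158 (-0.48) of 18S, and A1587 (0.48) and C2237 (0.48) of 25S. At such rates the constant added shrinks a ratio, and the unknown depth limits what can be read from it.

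The pattern that separates the DMSO from the no-addition library also separated the AglA from the CHX libraries, which are 5 other libraries. For each nucleotide the mean of the CHX libraries was subtracted from that of the AglA libraries, on the centred log2 scale and without C2821 and C2764. Across 512 nucleotides this difference had a Pearson correlation of 0.785 and a Spearman correlation of 0.696 with DMSO minus no addition. The 2 differences share no library, but each point pairs values of the same nucleotide, with the same rate and sequence, and nucleotides are not independent replicates, so no p-value is given. Without the 12 nucleotides past 0.5 the Pearson correlation was 0.697. It was 0.794 over A, 0.767 over C, 0.776 over 25S and 0.807 over 18S. It was higher for reactive bases, with 0.709 at mean rates of 0.5 to 1%, 0.801 at 1 to 2% and 0.848 above 2%. Drug and any difference in solvent between the AglA and CHX libraries cannot be told apart.

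Single pairs of libraries gave the same picture. Each of the 6 pairs of 1 AglA with 1 CHX library, taken as AglA minus CHX, had a correlation of 0.632 to 0.806 with DMSO minus no addition. The difference between the AglA doses (1.0 minus 0.5 mM) gave -0.078, and the 3 differences between CHX doses (higher minus lower) gave -0.130 to -0.076. The correlation was thus high for pairs of different drugs and close to 0 for doses of 1 drug.

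**Figure D5:**
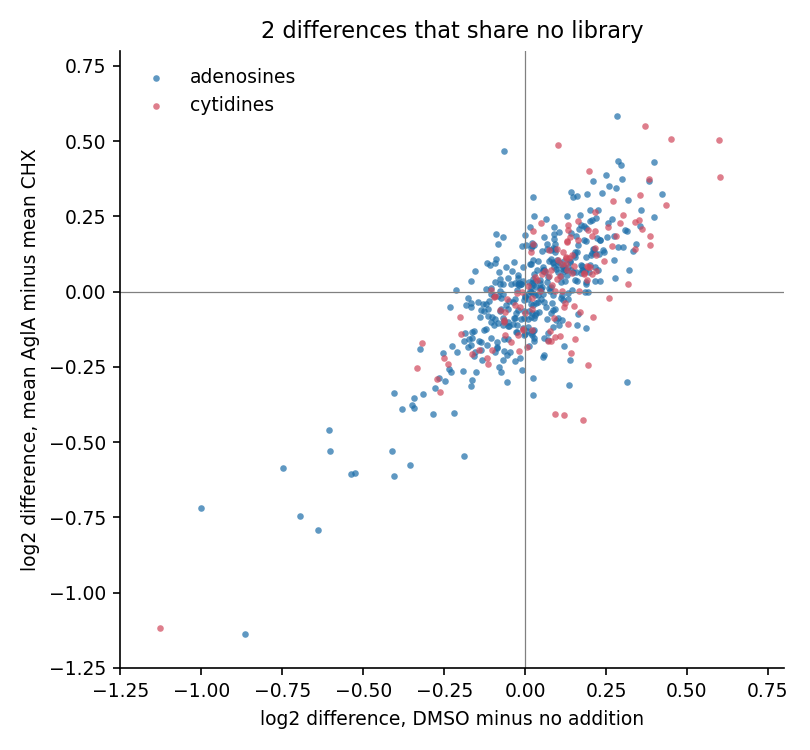
Centred log2 difference of the mean of 2 AglA minus the mean of 3 CHX libraries against that of DMSO minus no addition, 1 point per A or C (512, without the protected C2821 and C2764). The cloud rises from lower left to upper right (Pearson 0.785), and the 10 nucleotides lower with DMSO by at least 0.5 are all at the lower left, at -0.46 to -1.14 on the vertical axis.

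At each of these 10 nucleotides lower with DMSO by at least 0.5, both AglA libraries were below all 3 CHX libraries, and at each of the 2 higher ones both were above. With the rate without DMS subtracted, this held at 12 of 15 nucleotides past 0.5, and with no filter on low rates at 17 of 19. Over all 512 nucleotides the AglA libraries were below at 143 (27.9%) and above at 152 (29.7%), so such separation is common in these libraries. It followed the size of the DMSO difference. Of the 12 nucleotides between -0.5 and -0.3, 12 were separated downward, and of the 69 between -0.3 and -0.1, 47 were. Between -0.1 and 0.1, 63 of 231 were separated downward and 39 upward. Of 161 between 0.1 and 0.3, 87 were separated upward, and of 27 between 0.3 and 0.5, 22 were. The median AglA minus CHX difference was -0.66 for the 10 lowest and 0.013 over all 512. For A847, C439 and A1655 it was -1.14, -1.12 and -0.79, beside DMSO differences of -0.87, -1.13 and -0.64.

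Some nucleotides departed from that pattern. A155 near the 3′ end of 5.8S was higher with DMSO, at 0.717% with nothing added against 0.875% in DMSO, but had 0.602% and 0.450% under AglA, then 0.560%, 0.619% and 0.584% under CHX, so that AglA minus CHX was -0.30. A1790 near the 3′ end of 18S was lower with DMSO at -0.63, while its AglA and CHX libraries overlapped, at 0.216% to 0.247% and 0.177% to 0.254%. U280 of 18S, the highest of the tested G and U, had 0.732% with nothing added against 0.898% in DMSO (0.32), and its drug libraries also overlapped. A155 was picked out after its values were seen.

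Bases that yeast itself modifies on the pairing edge can give a high rate without DMS. A645 of 25S, an m1A, had 87.6% without DMS, and 86.99% with nothing added against 86.95% in DMSO. A2142, the other m1A, had 56.02% with nothing added against 54.5% in DMSO, and the m3U bases U2634 and U2843 had 66.1% with nothing added against 65.01% in DMSO, and 82.9% with nothing added against 82.6% in DMSO. In 18S the hypermodified U1191 had 83.1% with nothing added against 82.97% in DMSO, and the dimethyladenosines A1781 and A1782 had 0.611% with nothing added against 0.599% in DMSO, and 10.5% with nothing added against 10.3% in DMSO. Their log2 ratios before centring lay between -0.04 and -0.0007, so these bases differed little between the libraries.

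Few G and U had a rate high enough to compare. With a mean of at least 0.5% there were 39 (23 G and 16 U), and 0 of them (0%) were past 0.5 in either direction. Their median log2 ratio was 0.0064, with a standard deviation of 0.150. The lowest was U3275 of 25S, at 1.97% with nothing added against 1.56% in DMSO (-0.26), and it had 1.53% and 1.47% under AglA, then 1.69%, 1.91% and 1.63% under CHX. The next lowest were G2575, G1758, G2477 and G3369 of 25S, at -0.24 to -0.16. The highest after U280 were U3319, U874, U2921 and G1209 of 25S, at 0.29 to 0.20. Some of the 39 were about as high or higher without DMS. U2921 had 0.882% without DMS, against 0.850% with nothing added and 0.951% in DMSO. The same held for U2417, U2729, U1888 and G2624 of 25S and U1269 and U578 of 18S. It also held for the modified U1191, U2634 and U2843. Over all 39, the correlation of the DMSO difference with AglA minus CHX was 0.304, against 0.785 for A and C.

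Guanosines of low rate differed as a class. Over all 1495 G the median rate was 0.104% with nothing added and 0.0818% in DMSO, beside 0.0530% for the library without DMS. The rate was lower with DMSO at 1231 of them (82.3%), against 61.0% of all A, 59.7% of all C and 67.5% of all U. The drug libraries had medians of 0.0861% and 0.0974% under AglA, then 0.0890%, 0.0831% and 0.0906% under CHX. All of them were thus also below the library with no addition, so the lower level was not particular to DMSO. The median ratio of the plain rates, DMSO over no addition, was 0.823 for G, against 0.962 for A, 0.946 for C and 0.900 for U. At a log2 ratio of -0.5 or lower there were 31 G (2.07%), and 0 (0%) were at 0.5 or higher. Of these, 25S held 16, 18S 12, 5.8S 2 and 5S 1, and 16 of the 31 follow a C, although 257 G in all do. The 31 were picked out after their values were seen.

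The lower guanosines divided the libraries differently from the adenosines. Their median was 0.230% with no addition and 0.110% with DMSO, by which they were chosen, and 0.113% without DMS. In the libraries that the choice did not use, the median was 0.137% and 0.171% under AglA, then 0.121%, 0.116% and 0.179% under CHX. The highest dose of each drug thus lay above the lower doses. The rate was at least 1.5 times that without DMS at 23 of the 31 with 1.0 mM AglA and at 21 with 1000 µM CHX, but at 3 with 0.5 mM AglA and at 4 and 3 with 10 and 50 µM CHX. Over all 1495 G the same was true of 46.3% and 58.6% under AglA, then 48.2%, 42.2% and 51.9% under CHX, so the gap between doses was far smaller there. The largest were G3085 of 25S, at 0.333% with nothing added against 0.138% in DMSO (-0.80), and G1229 of 25S, at 0.290% with nothing added against 0.121% in DMSO (-0.76). Over the 1491 G with a rate above 0 in some library, DMSO minus no addition had a correlation of 0.409 with 50 minus 1000 µM CHX, 0.268 with 10 minus 1000 µM CHX, -0.110 with 10 minus 50 µM CHX and 0.241 with 0.5 minus 1.0 mM AglA, and of -0.274 to 0.344 with the 6 pairs of an AglA and a CHX library. At the tested A and C, whose rates are higher, the same kind of dose comparison had given values close to 0. Among A and C of low rate, lower minus higher dose gave -0.052 to 0.079 for 1067 A and -0.102 to 0.139 for 942 C. There the pairs of an AglA and a CHX library gave 0.183 to 0.295 for A and 0.033 to 0.206 for C. These were below the values of such pairs at the tested A and C. The part of rate level in the contrast with guanosines was not tested. What else differed between these libraries is not given, and was not tested.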

How the data were processed

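Per the labels' protocols, purified yeast 80S ribosomes were treated with DMS, fragments were size-selected by gel, and mutations were read by sequencing. The authors deposited 1 table with the mutation rate of each rRNA nucleotide in 8 libraries as a fraction from 0 to 1, and the rates are printed here as percent. Read counts are not given, so depth and counting error are unknown. Bowtie2, cutadapt and the build sacCer3 are listed, per the submitters' processing notes, with no roles or versions. For each library, log2(fraction + 0.001) was computed and the median over the tested nucleotides was subtracted. Tested nucleotides were A and C that reached 0.5% on average in the 7 libraries with DMS. A constant shrinks the ratios of low rates. With 1 library a side no test was made, and differences are described by size against bounds of 1 and 0.5 on the log2 scale. The code was tested on simulated data. Python 3.11.15, numpy 2.4.6, pandas 2.3.3 and matplotlib 3.10.9 were used.

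The nucleotides named were the tested A and C past 0.5 with their tested neighbours within 5 positions, the 10 lowest and 10 highest ratios, the 5 lowest and 5 highest of the tested G and U and of the A and C at 0.1 to 0.5%, runs of 3 or more, naturally modified bases and the drug-protected C2821 and C2764. Others were chosen after their values were seen. The members, lists and bounds were chosen with earlier results of these data known. Positions of modified bases and domain boundaries are from general knowledge and the boundaries are approximate. Alternatives were the constant, the filter, the centring, subtraction of the rate without DMS, the set of nucleotides, and leaving out each drug library.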

Additional observations from a re-analysis of the deposited data

How the results depend on the processing

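With 0.01 added in place of 0.001, 1 A or C was at least 2-fold lower with DMSO, 3 were lower and 0 higher at 0.5, the median before centring was -0.0084, and the AglA libraries lay outside the CHX libraries at 3 of those 3. The larger constant shrinks every ratio. With 0.0001 added, 3 A or C were at least 2-fold lower, A847 of 25S among them. With no filter on low rates (2529 A and C), 6 were higher at 0.5, the median before centring was -0.039, the correlation of nucleotides 1 or 2 apart was 0.059, that with AglA minus CHX was 0.455, the AglA libraries lay outside the CHX libraries at 17 of 19, and 41 G and U were past 0.5. With a mean rate of at least 2% (207 A and C), 5 were lower and 0 higher at 0.5, the median before centring changed sign to 0.017, and the AglA libraries lay outside the CHX libraries at all 5. With the rate without DMS subtracted, 1 was at least 2-fold lower (C439 of 25S) and 1 at least 2-fold higher (C969 of 25S), and 5 were higher at 0.5. Before subtraction C969 had 2.19% with nothing added against 2.41% in DMSO (0.19), so it passed 2-fold only through the subtraction. In the same setting the AglA libraries lay outside the CHX libraries at 12 of 15, the correlation with AglA minus CHX was 0.571, and 6 G and U were past 0.5. With C2821 and C2764 kept, the correlation with AglA minus CHX was 0.458. Without A1131 to A1133 of 18S, an alternative added after seeing the data, the correlation of nucleotides 1 or 2 apart was 0.154. Without centring, also added after seeing the data for these counts, 65 A and C were lower and 43 higher at 0.2, and 7 pairs 1 or 2 apart were both lower and 3 both higher. The cause of these changes was not tested, apart from those that follow from how an alternative was built. Of 94 values under alternatives, 70 stayed within 1.5 times the reported value with the same sign, and C439 was lower by at least 2-fold in every setting run. Leaving out each drug library gave correlations with AglA minus CHX of 0.739 to 0.809. No paired analysis was possible because each side holds 1 library. Without read counts, no difference can be set against counting error, and without a second library of either kind it cannot be set against the spread between repeats.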
